A study of Mus musculus with 68 samples.

Results

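Arrested and cycling apical progenitors (APs) of the mouse cerebral cortex, both taken 3 days on from E11, were compared across all genes of the array. APs are the neuroepithelial and radial glial cells that divide at the ventricular surface of the embryonic cerebral wall. The NICD/p18 APs were 4 single cells (M5A, M5K, M6C and M6H) isolated from the E14 ventricular and subventricular zones of CD1 mice, 3 days after plasmids for the Notch1 intracellular domain (NICD), for p18 and for EGFP had been electroporated together into the cerebral wall in utero at E11. The neurosphere APs were 3 single cells (W2G, W2O and W6D) from neurospheres that E11 dorso-lateral cerebral wall cells of CD1 mice had formed in 3 days of suspension culture with N2, B27, N-acetylcysteine, 20 ng/ml FGF2 and 20 ng/ml EGF, without any introduced gene. Members were chosen by the cell names in the sample titles, 7 of the 68 single cells of the series, and 3 freshly isolated E12 APs (103L, 105M and 109B), whose arrays were scaled like the other 7, are given as a cycling in vivo reference. The E12 APs had been picked by qPCR for Mki67, Ttyh1, Sox2 and Pax6 and against Eomes. They are also younger than the 7 cells compared, so age cannot be told apart from other differences to them.

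NICD is the part of the Notch receptor that moves to the nucleus and drives transcription with RBPJ, and cells that hold it stay undifferentiated. p18 (Cdkn2c) is an INK4 inhibitor that binds CDK4 and CDK6 and stops cells in G1. The pair of plasmids, driven by the CAG and EF promoters, was meant to hold APs undifferentiated and arrested, whereas FGF2 and EGF keep neurosphere progenitors proliferating. The groups differed in NICD, in p18, in being in the tissue or in culture, in growth factors, in electroporation and in how cells were picked, and these cannot be told apart here. Each electroporated cell lay among normal neighbours. Which embryo or culture a cell came from is not in the labels. Each group therefore counts as 1 sample, no significance test was made, and the SD given is that between cells.

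The amplified cDNA of each cell was hybridized to its own Affymetrix mouse genome array. Signals were quantile normalized over all 68 arrays and are given as log2. A floor of 9.72 on the log2 scale, the median signal of the phe RNA spiked in at 20 copies per cell, separated what could be ranked from what could not. Signals under the floor were set to it for differences and counts, so that a fold against a group with cells under the floor is written as at least. The printed values of single cells are the signals before the floor, and values under 9.72 have no order of their own. After normalization 4489 probe sets of every array reached the floor by construction. The lys spike, added at 1000 copies per cell, had deposited signals of 15466 to 34950 in the NICD/p18 arrays and 9700 to 14801 in the neurosphere arrays, the highest in the arrested cells. Whether these held less RNA or received more spike cannot be told apart. The normalized phe signal was 1176 to 4678 in the NICD/p18 arrays and 13.1 to 1662 in the neurosphere arrays, and the floor is therefore no exact copy number. Of all pairs of these 7 arrays 0 were identical. Across genes, pairs of NICD/p18 cells correlated with r of 0.475 to 0.602, pairs of neurosphere cells with 0.628 to 0.658, and pairs across the groups with 0.451 to 0.606.

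Some cells stood apart within their group. Of 19 neuron markers, M5K and M6C held 11 and 12 at or above the floor, against 4 in M5A, 1 in M6H and 2, 6 and 4 in W2G, W2O and W6D. The neurogenic factor Neurod6 was at 11.55, 12.74, 12.70 and 2.46 in M5A, M5K, M6C and M6H, and the microtubule protein Dcx at 8.97, 11.13, 12.80 and 4.51. W6D carried genes of oligodendrocyte precursors, among them the receptor Pdgfra at 13.09, the proteoglycan Cspg4 at 10.21, the transcription factor Sox10 at 11.58 and the receptor Gpr17 at 11.02, all under the floor in the other 6 cells. In W6D the AP genes Pax6 (4.11) and Ttyh1 (7.97) were under the floor, although the cells had been picked by qPCR for them, and Sox2 was under it in M5K (8.90). List medians were also taken with such cells left out, whereas most differences of single genes rest on all cells. Of 4 ventral telencephalon genes past the filter, 1 reached the floor in W2O and 2 in W6D, and 0 did in W2G, the NICD/p18 cells and the E12 APs. Markers of blood cells, microglia, Cajal-Retzius cells and choroid plexus were under the floor in all 7 cells. Of 3 vessel markers 1 reached it, in 1 cell, namely Cldn5 in M6C (11.95), and of 3 mesenchyme markers only Pdgfrb did, at 10.51, 5.92, 11.65 and 11.22 in the NICD/p18 cells.

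The introduced genes were looked at first. Notch1 has 2 probe sets past the filter, and they went opposite ways. The first read 13.70, 12.75, 13.70 and 13.60 in M5A, M5K, M6C and M6H and 7.43, 5.59 and 5.59 in W2G, W2O and W6D, at least 13.2-fold higher on average, with every cell given the NICD plasmid above every neurosphere cell. The second, which had the higher mean over the series, read 9.20, 9.30, 10.30 and 10.64 against 11.46, 11.88 and 9.90, a mean difference of -0.99. Where each lies on the transcript is not given in the sources used here, and a plasmid with the coding sequence of one domain need not be read by a probe set at the 3' end of the gene. The single probe set of Cdkn2c read 8.87, 6.29, 5.84 and 8.69 in the NICD/p18 cells and 9.92, 4.52 and 8.30 in the neurosphere cells. Since the plasmid carries the coding cDNA, which this probe set need not read, it checks nothing about the p18 plasmid. Mki67, which had to be present by qPCR for a neurosphere AP and whose absence the study had checked in NICD/p18 APs, was at 4.23, -0.09, 0.69 and 1.69 against 10.39, 11.09 and 12.04 and is no finding. Eomes, picked against in both groups, was under the floor in all 7 cells.

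Of 10788 genes with a probe set past the filter, 30 were at least 4-fold higher in NICD/p18 APs with no overlap between the cells of the groups, and 30 were at least 4-fold lower. Each is 0.278% of the genes. Of the 10788 genes, 3942 were at the floor in all 7 cells and could not differ, which lowers every share of all genes given here. Lists with few such genes are thus set against low shares. When only genes over the floor in at least 1 of the 7 cells were kept (7196), the median difference of all genes was 0.03. Counted without regard to overlap, 36 genes (0.334%) were at least 4-fold higher and 33 (0.306%) at least 4-fold lower. Without a limit on size, 109 genes (1.01%) were higher in every NICD/p18 cell than in every neurosphere cell, and 221 (2.05%) were lower. Of the 30 lower genes, 10 belong to the list of G2 and mitosis genes and 2 to that of DNA replication genes, whereas 0 of the 30 higher genes belong to either. The split between higher and lower genes depended on scaling. It was 100 higher and 170 lower genes with no normalization added, 10 and 6 when 10 arrays alone were normalized together, and 5 and 185 after scaling to the lys spike, where the median of all genes differed by -1.20 (log2, no floor), against -0.12 after quantile normalization. All 30 lower genes were counted again with no normalization added and with the spike, but of the 30 higher genes 27 and 4 were. Single cells bore on the counts too, with 51 higher genes without W2G and 48 lower genes without W2O or without W6D.

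**Figure D1:**
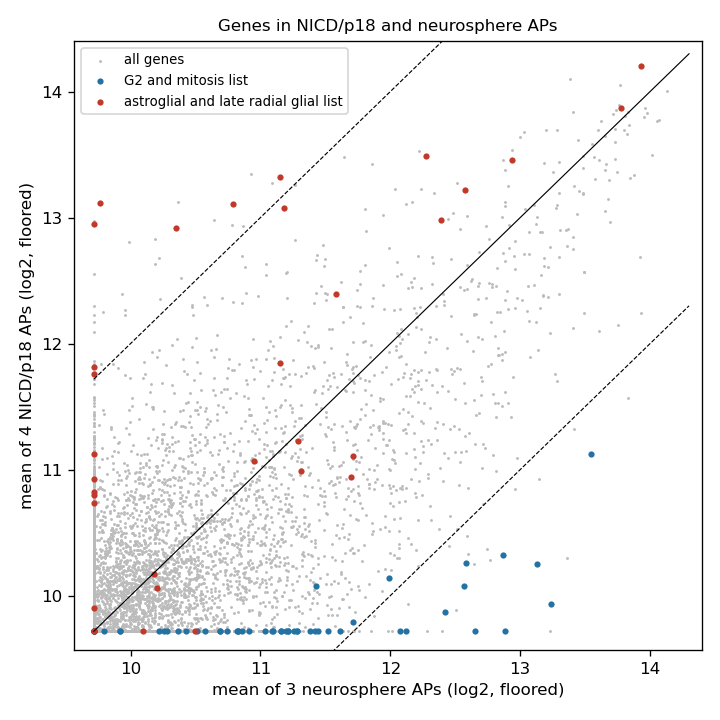
Each point is 1 of 10788 genes, placed by its mean log2 signal, floored, in 3 neurosphere APs (x axis) and 4 NICD/p18 APs (y axis). The solid line marks equal means and the dashed lines a 4-fold difference. Blue points, the G2 and mitosis list, lie under the line of equal means or at the floor on both axes, and most red points, the astroglial and late radial glial list, lie above it.

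Genes of cell division set the groups apart. Neurosphere APs and E12 APs had been picked for Mki67, and its absence had been checked in NICD/p18 APs. This bears on these genes and on those of DNA replication, in the E12 APs too. How far that picking fixed the split was not tested. Of 52 G2 and mitosis genes past the filter (of 54 listed), 5, 3, 0 and 4 were at or above the floor in M5A, M5K, M6C and M6H, and 43, 34 and 42 in W2G, W2O and W6D. The E12 APs held 34, 37 and 46. The median difference over the list was -1.41 on the floored log2 scale, against 0.00 over all genes, and 26 of the 52 were lower without overlap, the largest share of any list examined, against 2.05% of all genes. Of the members, 17 were at or above the floor in 3 of 3 neurosphere cells and 0 of 4 NICD/p18 cells, as were 0.565% of all genes. The floored mean was lower for 49 of the 52 and higher for 0, and the other 3 were under the floor in all 7 cells. With no normalization added 52 were lower and with the lys spike 51, and 0 were higher under either. The median was about as large without M5K and M6C (-1.40) and without W6D (-1.38).

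Top2a, the topoisomerase that untangles sister chromatids, was at 4.74, 2.02, 3.48 and 4.01 in the NICD/p18 cells and at 13.10, 12.45 and 13.09 in the neurosphere cells, at least 8.96-fold lower. All 3 E12 APs lay at 12.18 to 13.24. Birc5 (survivin), which positions the chromosomal passenger complex, was at 6.12, 8.04, 0.60 and 1.27 against 12.56, 12.21 and 13.19, at least 7.65-fold lower. Cdk1, the kinase that starts mitosis, was at 4.87, 10.32, 2.26 and 0.16 against 12.90, 11.62 and 12.74, and M5K was the single arrested cell in which it reached the floor. Ube2c, which loads ubiquitin for the anaphase-promoting complex, was at 10.57, 9.10, -0.56 and 3.62 against 13.51, 12.52 and 13.68, at least 9.90-fold lower. The centromeric histone Cenpa was at 5.28, 0.50, 2.29 and 3.36 against 12.73, 11.30 and 12.20. For each of these 5 genes all arrested cells lay under all neurosphere cells, and at most 1 arrested cell reached the floor. Aurkb, the passenger kinase (3.75, 3.13, 2.53 and 4.07 against 11.89, 10.48 and 11.41), Kif20a, a kinesin of the midzone (2.86, 0.31, 0.36 and 0.51 against 12.14, 10.99 and 11.71), and Anln, a scaffold of the contractile ring (1.95, -0.53, -0.43 and 2.96 against 10.67, 11.48 and 11.70), had the same pattern.

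The separation was not complete for every member. Cks1b, a small partner of CDKs, was at 12.13 in M5K and 12.92 in M6H but 5.24 and 2.20 in M5A and M6C, under the 13.47 to 13.68 of the neurosphere cells. Pttg1 (securin) was at 12.13 in M6H and at most 8.70 in the other 3, against 12.44 to 13.09. Cks2 was at 11.86 in M5A, Cenpf at 11.15 in M6H, Cdca8 at 11.87 in M5K and Plk1 at 10.34 and 10.79 in M5A and M6H, each with the other arrested cells under the floor. Different cells thus kept different single members. M6C alone had all 52 under the floor. Among the neurosphere cells W2O held the fewest, with Ccnb2 at -0.18 against 11.55 and 11.22 in W2G and W6D and Cdc20 at 8.08 against 13.63 and 13.01.

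Transcription of many G2 and mitosis genes is known to depend on CCAAT boxes, read by NF-Y, and on the cell cycle genes homology region (CHR), read by the DREAM and MuvB complexes. The 250 bases before the start sites of 3 members, all among the genes at least 4-fold lower without overlap, are shown because they hold both motifs (RefSeq, build GRCm38.p6, each 5' to 3' on the strand of its gene), with CCAAT and its reverse complement ATTGG, and TTTGAA, its reverse complement TTCAAA and the palindrome TTCGAA, in capitals. They are those of Top2a at chr11:99024190-99024439 (minus strand, 6 CCAAT and 4 CHR matches), Cdk1 at chr10:69352913-69353162 (minus strand, 3 and 2) and Ube2c at chr2:164769679-164769928 (plus strand, 6 and 1).
Top2a: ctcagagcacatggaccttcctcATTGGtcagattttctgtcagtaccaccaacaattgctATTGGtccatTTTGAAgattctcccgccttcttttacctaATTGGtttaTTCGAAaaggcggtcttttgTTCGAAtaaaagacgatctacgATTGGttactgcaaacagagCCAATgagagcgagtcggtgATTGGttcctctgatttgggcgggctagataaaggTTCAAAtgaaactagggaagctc
Cdk1: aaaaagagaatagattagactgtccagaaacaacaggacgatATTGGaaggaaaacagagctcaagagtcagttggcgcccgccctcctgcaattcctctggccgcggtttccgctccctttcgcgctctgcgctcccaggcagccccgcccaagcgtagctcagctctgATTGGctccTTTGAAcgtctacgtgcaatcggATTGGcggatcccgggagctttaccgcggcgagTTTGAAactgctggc
Ube2c: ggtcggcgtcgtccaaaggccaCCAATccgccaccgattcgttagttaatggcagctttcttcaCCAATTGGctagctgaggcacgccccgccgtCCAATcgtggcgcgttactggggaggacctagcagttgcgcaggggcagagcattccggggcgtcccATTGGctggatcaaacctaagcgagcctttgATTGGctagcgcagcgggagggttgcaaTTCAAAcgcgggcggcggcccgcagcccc
Of the 52 members, 44 had a promoter in the table, and 70.5% of these held CCAAT, 31.8% the CHR and 29.5% both, on either strand, overlapping matches counted. Of all 27025 promoters of the same length 34.5% held CCAAT, 17.4% the CHR and 6.21% both, and of the 8821 promoters of genes past the filter 36.7%, 11.6% and 4.59% did. Of 30 promoters of the DNA replication list 20.0% held TTTCCCGC or TTTGGCGC, forms of the E2F site, against 1.35% of all promoters and 2.74% of those of genes past the filter. A match is a description of the sequence and no evidence of binding in these cells.

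DNA replication genes differed less evenly. Of 36 past the filter (of 38 listed), 4, 3, 5 and 1 reached the floor in M5A, M5K, M6C and M6H, and 11, 30 and 13 in W2G, W2O and W6D, while the E12 APs held 26, 19 and 22. W2O, the neurosphere cell with the fewest mitotic genes, thus had by far the most replication genes. The median difference was -0.61, and it was 0.00 without W2O. Rrm2, the regulated subunit of ribonucleotide reductase, was at 0.02, -1.04, -0.52 and 2.45 in the NICD/p18 cells and 12.16, 12.79 and 11.89 in the neurosphere cells, at least 5.92-fold lower. Its partner Rrm1 was at 6.05, 9.71, 10.58 and 4.19 against 12.23, 11.93 and 12.26, at least 4.62-fold lower. Pclaf, which binds PCNA at replication forks but is not on the list, was at 4.99, 5.00, 4.56 and 4.41 against 11.55, 12.47 and 11.54. Pcna itself, the sliding clamp, remained at 11.12, 11.49 and 11.93 in M5A, M5K and M6C and 9.42 in M6H, against 11.63, 13.48 and 12.49, and these cells overlapped. The helicase subunit Mcm7 was at 12.49 in M5A but at most 2.48 in the other 3 arrested cells, against 11.55 to 12.35. Chromatin genes outside both lists were also among the 30 lower genes. H2az1, a histone variant, was at 6.97, 12.38, 11.96 and 12.22 against 14.01, 13.51 and 13.96, and H2ax at 10.75, 8.21, 7.49 and 11.71 against 12.83, 12.14 and 12.80. So were Anp32e (at least 5.61-fold), Dek (at least 4.10-fold) and the nuclear import receptor Kpna2 (4.65-fold).

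**Figure D2:**
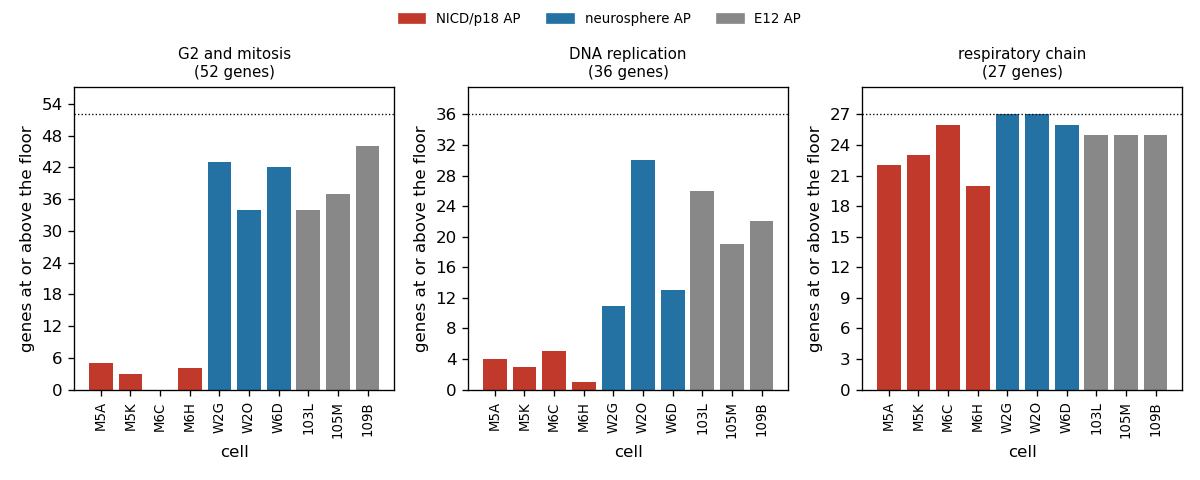
Bars give, for each cell, how many genes of a list were at or above the floor, with the dotted line at the number of genes in the list. In the G2 and mitosis panel the 4 NICD/p18 APs stand at 0 to 5 of 52 and the 3 neurosphere APs at 34 to 43, with the E12 APs at 34 to 46. The respiratory chain panel shows 20 to 26 of 27 and 26 to 27.

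Regulators of G1 did not move together. Of 26 past the filter 2 (7.69%) were higher and 1 (3.85%) lower without overlap, against 1.01% and 2.05% of all genes. Ccnd3, the D-type cyclin, was at 11.64, 11.004, 11.57 and 12.67 in the NICD/p18 cells and just under the floor, at 9.61, 9.67 and 9.66, in the neurosphere cells, at least 4.01-fold higher. Cdk6, a kinase that p18 binds, was at 11.09, 11.37, 10.86 and 10.16 against 5.76, 5.61 and 1.44, at least 2.22-fold higher. The other such kinase, Cdk4, was at 11.57, 11.67, 11.12 and 10.44 against 12.57, 12.89 and 12.69, 2.86-fold lower. Ccnd2 was over the floor in every cell but W6D (11.56, 12.77, 12.43 and 10.97 against 13.21, 13.05 and 9.68) and Ccnd1 varied from cell to cell (7.85, 12.09, 5.30 and 7.05 against 7.77, 10.98 and 12.67). Cdkn1a (p21) and Cdkn1c (p57), other CDK inhibitors, were under the floor in all 7 cells, and Cdkn1b (p27) was at 10.07, 10.69, 11.29 and 8.55 against 9.13, 5.72 and 10.35. Of 12 genes of the p53 response past the filter, 0 differed without overlap, against the same 1.01% and 2.05% of all genes. A list so short can hold 0 at these shares alone.

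Of the 30 genes at least 4-fold higher in NICD/p18 APs, the 5 of the astroglial and late radial glial list were Sparc, Fgfbp3, Apoe, Clu and Ndrg2. Sparc, a matricellular protein of radial glia and astrocytes, had the widest gap among the higher genes, at 13.22, 12.85, 12.57 and 13.16 (mean 12.95, SD 0.30) against 8.50, 2.53 and 9.23, at least 9.40-fold higher. Of its further probe sets past the filter, one overlapped, with a difference of 0.59, and another was under the floor in all 7 cells, and the mean over its probe sets differed by 1.28. Fgfbp3, which releases FGFs from the matrix, was at 13.64, 11.90, 13.05 and 13.88 against 9.87, 1.90 and 1.08, at least 10.2-fold higher. Apoe, the lipid carrier of astrocytes, was at 11.32, 11.15, 12.21 and 12.38 against 2.35, 0.56 and 0.49, and at 1.14 to 1.19 in the E12 APs. Thus Apoe was over the floor in each arrested cell and far under it in the other 6. Mfge8, a secreted bridge for phagocytosis, was at 13.12, 12.11, 12.98 and 13.04 against 9.77, 10.47 and 5.37. Clu (clusterin), a secreted chaperone, was at 10.14, 12.65, 11.36 and 13.11 against 9.40, 5.97 and 5.09. Ndrg2, an astrocyte gene, was at 12.98, 12.39, 12.83 and 13.46 against 11.61, 8.95 and 4.52.

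Over the list of astroglial and late radial glial genes the cells of the groups did not overlap in number. The list was written with earlier results of these data known, so its counts describe the difference and do not test it. Of 33 past the filter (of 40 listed) 23, 24, 23 and 28 were at or above the floor in the NICD/p18 cells, 21, 17 and 15 in the neurosphere cells, and 11, 15 and 12 in the E12 APs. The median difference was 0.65 against 0.00 over all genes, 7 members were higher without overlap (1.01% of all genes) and 0 lower. Of the members, 4 were at or above the floor in 4 of 4 NICD/p18 cells and 0 of 3 neurosphere cells, against 0.408% of all genes. Without W6D the median was 0.41. Mlc1, a membrane protein of astrocyte endfeet, was at 10.68, 11.45, 10.79 and 11.57 against 0.73, 0.34 and 0.36. Aldoc, an aldolase of the brain, was higher by 0.52 with no overlap, but its difference was 0.11 with no normalization added and -0.82 after scaling to the lys spike. Fabp7, the lipid-binding protein of radial glia, was near the top of the scale in both groups (13.98, 13.78, 13.95 and 13.76 against 13.78, 13.79 and 13.75), and at 11.03 to 11.25 in the E12 APs. The mature astrocyte gene Gfap reached the floor only in M6H (10.44), and the gap junction gene Gja1 reached it in W2G and W2O (10.48 and 11.29) but in no NICD/p18 cell. The transporter Slc1a3 was at 11.73, 9.26, 10.60 and 11.15 with all 3 neurosphere cells under the floor. After scaling to the lys spike the floored median of the list was -0.09, with 14 members higher and 17 lower, against 23 and 8 after quantile normalization and 22 and 9 with none added. With no floor that scaling put the median of all genes at -1.20 and that of the list 0.84 above it.

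Further genes higher without overlap have no common list. Fhl1, a LIM protein, was at 13.42, 12.48, 12.76 and 13.22 against 9.61, 7.74 and 8.20, and the E12 APs, at 10.46 to 12.93, all lay above the neurosphere cells. Fam126a, needed for making phosphoinositides at the membrane, was at 12.38, 12.62, 12.72 and 12.48 against 7.53, 3.56 and 8.80. Cntnap2, an adhesion protein of the neurexin family, was at 12.01, 11.89, 12.30 and 12.82 against 9.93, 3.11 and 3.50. Npdc1 (at least 5.69-fold), the peroxisomal enzyme Hsd17b4 (at least 5.50-fold), Gm11627 (at least 4.43-fold), the synaptotagmin Syt11 (5.33-fold) and the semaphorin receptor Plxnb1 (at least 4.15-fold) complete the 12 with the widest gap. A further probe set of Syt11 had a difference of -0.60, while 3 others were higher by 1.70 to 2.73. Id4, an inhibitor of proneural factors, was at 13.45, 12.32, 12.62 and 12.92 against 11.13, 4.68 and 5.08, and at 13.01 to 13.20 in the E12 APs. Plagl1, a zinc-finger growth regulator, likewise was at 12.18 to 13.70 in the NICD/p18 cells and 12.35 to 13.29 in the E12 APs but at 11.66, 2.81 and 5.10 in the neurosphere cells. For both genes the E12 APs lay above all 3 neurosphere cells. Of the 30 higher genes, the E12 mean was nearer to the neurosphere mean for 25 and to the NICD/p18 mean for 5. For the 30 lower genes these numbers were also 25 and 5. However, 12 of the 30 lower genes belong to the G2 and mitosis or the DNA replication list. The E12 APs had been picked for Mki67, as had the neurosphere cells.

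**Figure D3:**
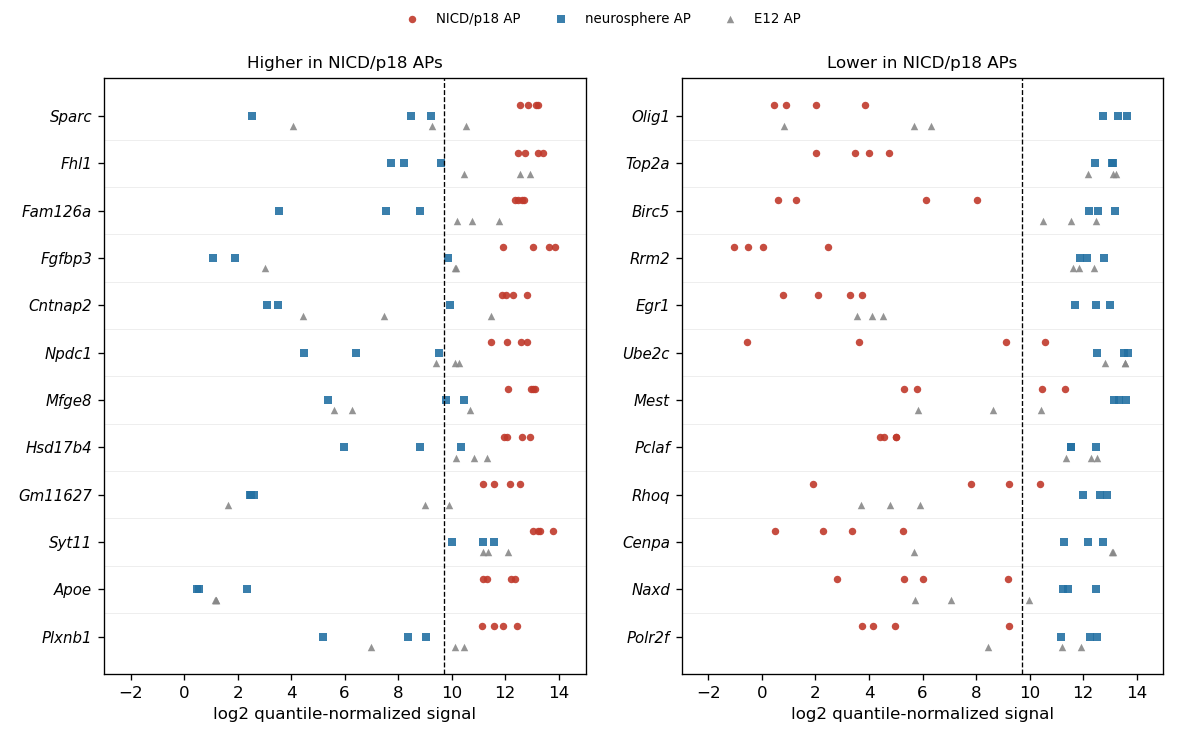
Log2 quantile-normalized signals before the floor of single cells for the 12 genes per direction with the widest gap between the groups. Each point is 1 cell and the dashed line is the floor at 9.72. All NICD/p18 cells lie above the floor on the left, from 11.12 upward, and all neurosphere cells above it on the right, from 11.18 upward.

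Olig1 headed the lower genes that are not of the cell cycle. This bHLH factor of oligodendrocyte precursors was at 2.03, 0.43, 0.90 and 3.85 in the NICD/p18 cells and 12.74, 13.30 and 13.64 in the neurosphere cells (mean 13.22, SD 0.45), at least 11.4-fold lower, the widest gap of the 10788 genes as represented here. It was under the floor in the 3 E12 APs too (5.69, 0.81 and 6.33). Its partner Olig2 was at 6.96 in W2G but 12.94 and 13.39 in W2O and W6D, with every arrested cell at 0.40 or less. Of 9 genes of the oligodendrocyte lineage past the filter, 0 reached the floor in any NICD/p18 or E12 cell, and 2, 2 and 6 did in W2G, W2O and W6D. The median difference of the list, -0.58, was 0.00 without W6D, whereas Olig1 was high in all 3 neurosphere cells. Mest, an imprinted gene of growing tissue, was at 5.29, 11.30, 5.78 and 10.46 against 13.33, 13.61 and 13.14. Rhoq, a small GTPase, was at 1.90, 7.82, 10.40 and 9.25 against 12.001, 12.63 and 12.88, and in the E12 APs at 3.70 to 5.91. Naxd, which repairs hydrated NADH, and Polr2f, a subunit of RNA polymerases, were at least 4-fold lower.

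Genes that FGF and EGF signalling induces were examined because the neurospheres were grown with both factors. Egr1, an immediate-early gene, was at 2.09, 3.73, 3.30 and 0.79 in the NICD/p18 cells and 12.48, 13.01 and 11.70 in the neurosphere cells, at least 6.39-fold lower, and at 3.57 to 4.51 in the E12 APs. It was the single member of 13 immediate-early genes past the filter (7.69%) that differed without overlap, where 2.05% of all genes were lower. Fos reached the floor in W2O alone (10.31). Of 15 genes of the FGF and EGF response past the filter 0 differed without overlap, where 1.01% of all genes were higher and 2.05% lower. So short a list can hold 0 at these shares alone. The feedback inhibitors Spry1 and Dusp6 were over the floor in W2O and W6D (12.07 and 12.07, and 10.34 and 11.64) and under it in W2G and all NICD/p18 cells. The ETS factor Etv5 was at 10.89, 11.03, 6.03 and 11.70 against 12.50, 11.34 and 12.30, and at most 3.10 in the E12 APs. Il17rd, another inhibitor of FGF signalling, was higher on average but overlapped at the floor, at 12.83, 9.33, 10.23 and 10.81 with all neurosphere cells at 5.76 or less. Fgfr1, the receptor, was at 9.81, 11.43, 9.63 and 11.15 against 11.76, 12.002 and 11.997, at least 2.63-fold lower.

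**Figure D4:**
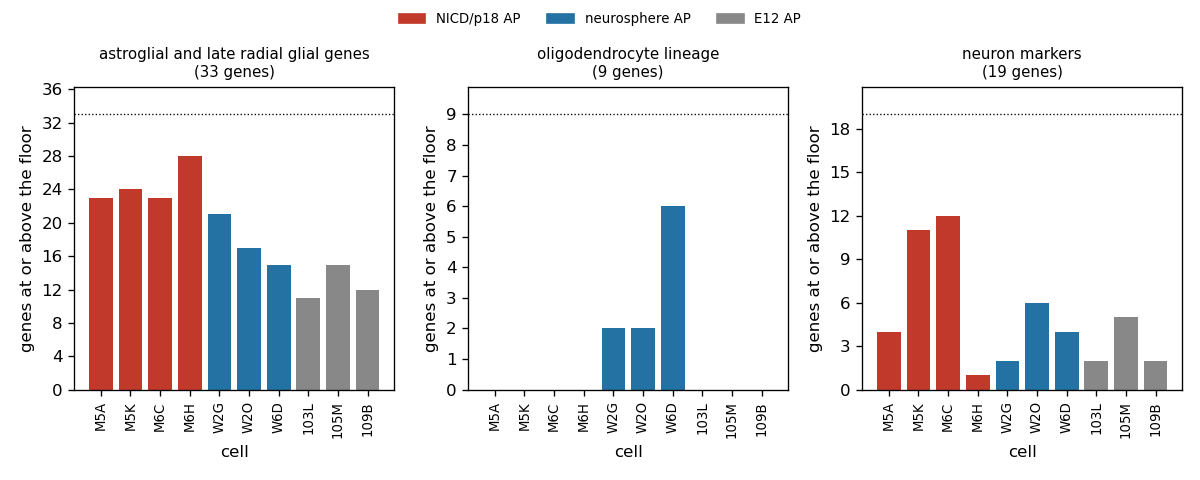
Bars give, for each cell, how many genes of 3 marker lists were at or above the floor, with the dotted line at the number of genes in the list. The NICD/p18 APs stand at 23 to 28 of 33 astroglial genes and at 0 of 9 oligodendrocyte genes. Of the neuron markers, M5K and M6C hold 11 and 12 of 19.

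Notch genes were not uniformly higher in the cells given NICD. Of 19 Notch target and related genes past the filter 7, 11, 10 and 11 reached the floor in the NICD/p18 cells and 10, 8 and 6 in the neurosphere cells, and the median difference was 0.10, 0.35 without W2G and 0.00 without M6H or without M5K and M6C together. Nrarp, a feedback inhibitor that Notch induces, was at 12.64, 12.25, 12.53 and 13.01 against 12.52, 9.80 and 10.33, 3.30-fold higher on average but overlapping through W2G. Dtx1 (deltex) was over the floor in M5K, M6C and M6H (12.03, 10.23 and 12.15), just under it in M5A (9.52), and at 4.89 to 6.14 in the neurosphere cells. The matrix protein tenascin C (Tnc) was at 13.71, 13.13, 12.95 and 13.51 against 13.06, 9.75 and 10.65, and at 2.23 to 3.26 in the E12 APs. The effectors Hes5 (10.81, 12.63, 8.07 and 12.56 against 12.19, 9.45 and 11.46) and Hey1 (11.32, 12.16, 10.65 and 9.97 against 12.19, 11.64 and 9.38) overlapped, and Hes1 was under the floor in all 7 cells. Among receptors, Notch2 was at 10.64, 11.68, 11.71 and 13.02 against 5.18, 1.07 and 2.60, at least 4.12-fold higher, and Notch3 was at 12.16, 12.04, 12.17 and 10.48 against 12.04, 5.49 and 8.42. The ligand Dll1 reached the floor in W6D alone (10.32), and Dll3 too (11.49).

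Temporal-axis genes are 18 genes that the study took from a principal component analysis of other progenitors, APs and intermediate progenitors of E11 and E14, for their weight on the axis that separated these ages. Here they address where arrested and cycling cells lay in developmental time. Of the 9 E11-high genes 0, 3, 1 and 1 reached the floor in M5A, M5K, M6C and M6H, 1, 1 and 2 in W2G, W2O and W6D, and 3, 1 and 4 in the E12 APs. The median difference was 0.00. Crabp2, a carrier of retinoic acid, was at 0.82, 8.39, 1.46 and 1.92 against 1.76, 0.99 and 0.17, and at 9.26 to 11.39 in the E12 APs. Fndc3c1, Chst2, Dmrta1 and Dmrt3 were under the floor in all 7 cells. Sulf2, a heparan sulfatase, was an exception, at 3.53, 10.71, 2.97 and 11.19 against 9.92, 10.59 and 10.57, present in 2 of 4 and 3 of 3 cells and in 0 of 3 E12 APs. Tubb3, also a neuron marker, reached the floor in M5K and M6C (11.76 and 11.43).

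Of the 9 E14-high genes 6, 5, 6 and 6 reached the floor in the NICD/p18 cells, 5, 5 and 4 in the neurosphere cells and 2, 5 and 4 in the E12 APs. The median difference was 0.60, and 0.39 without M6H. Rlbp1, a retinoid-binding protein of radial glia, was at 13.46, 13.26, 12.91 and 13.48 against 12.06, 11.50 and 8.07, at least 4.55-fold higher. That fold rests in part on W6D, the only neurosphere cell under the floor. The growth factor Ptn was higher by 0.60 without overlap, at 13.28, 13.22, 13.70 and 13.96 against 13.16, 12.96 and 12.69, as was Aldoc by 0.52. The difference of Ptn was 0.18 with no normalization added and -0.75 after scaling to the lys spike, so that the direction of both genes rests on the scaling. Zbtb20, a repressor of hippocampal and astroglial cells, reached the floor in M5A and M6H (9.89 and 12.31) by the probe set used. That probe set reached it in 0 of 3 neurosphere cells, but others did in W2G (10.12 and 9.91) and M6C (11.16 and 9.93). Epha5 reached the floor in M5A and M6C (12.34 and 12.69) by the probe set used, and in M5K (10.90 and 10.50) by others. Further probe sets of Ptn and Zbtb20 had differences of -0.25, -0.08 and -0.07. The endothelin receptor Ednrb was lower on average but overlapped, at 8.15, 11.79, 11.85 and 10.40 against 11.16, 11.68 and 12.26, and the adhesion receptor Adgrb3 reached the floor in W2O alone (10.86). Sema5a, an E14-high gene, was under the floor in all 7 cells. Expressed as the floored mean of the E14-high minus that of the E11-high genes, the cells lay at 1.86, 1.07, 1.75 and 1.82 (NICD/p18) and 1.43, 1.17 and 0.87 (neurosphere), and the E12 APs at 0.12, 0.83 and 0.19. M5K, with its neuron markers, thus lay among the neurosphere cells and the other 3 above them. On the same scale the 30 E11 cells of the series ran from -1.40 to -0.17 and the 28 E16 cells from 0.18 to 1.76. Their arrays had been scaled differently by the authors, and these cells include intermediate progenitors besides APs. An E11 array that the authors left out of most analyses for low quality is also among them. E11 progenitors of the series were among the cells from which these genes had been chosen, so their low scores follow in part from that choice. Under lys scaling the floored median of the E14-high list was -0.07, with 3 members higher and 5 lower, against 6 and 2 after quantile normalization. With no floor its median under lys scaling was 0.45 above that of all genes.

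**Figure D5:**
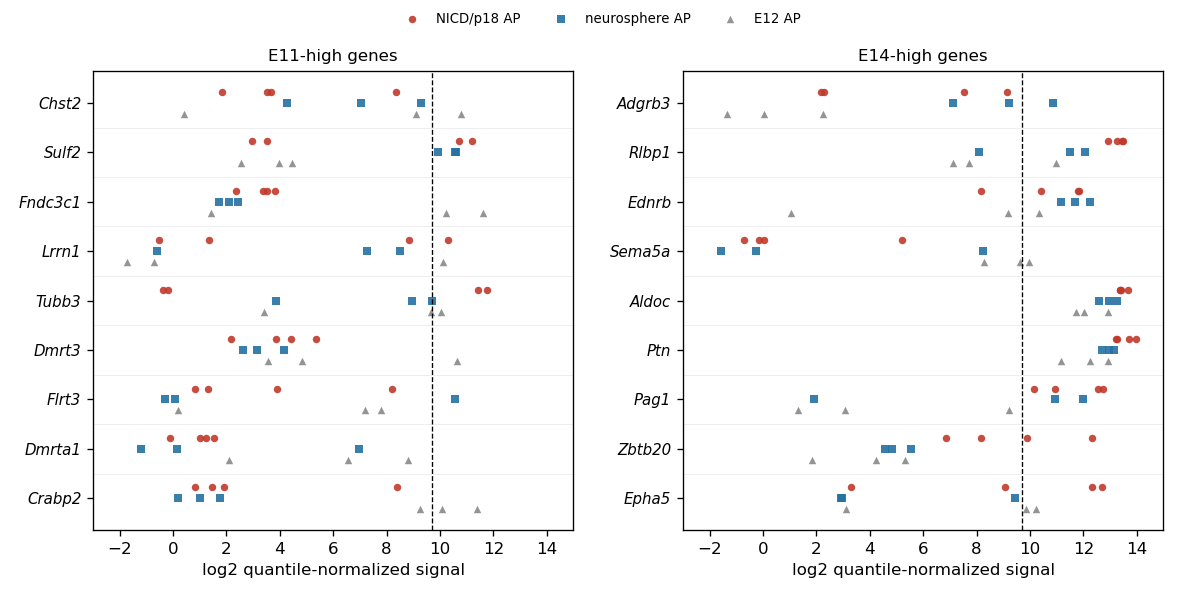
Log2 quantile-normalized signals before the floor of single cells for 9 E11-high and 9 E14-high temporal-axis genes. Each point is 1 cell and the dashed line is the floor at 9.72. Crabp2 and Fndc3c1 reach the floor in E12 APs but in no cell of the other groups, and Rlbp1 is over 12.9 in every NICD/p18 cell.

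Genes of the respiratory chain were lower in NICD/p18 APs. Of 27 respiratory chain genes 22, 23, 26 and 20 reached the floor in the NICD/p18 cells and 27, 27 and 26 in the neurosphere cells. The median difference was -0.88. Without overlap 8 members (29.6%) were lower and 1 (3.70%) higher, against 2.05% and 1.01% of all genes. Atp5g1, a subunit of the ATP synthase ring, was at 0.42, 9.68, 10.79 and 11.35 against 12.31, 12.24 and 12.80, at least 4.15-fold lower, and Atp5j at 11.17, 12.63, 12.11 and 10.89 against 13.35, 13.22 and 13.27, 2.99-fold lower. Ndufs1 was the member higher without overlap, by 0.66, and its difference was -0.28 after scaling to the lys spike. Of 23 ribosomal protein genes 6 (26.1%) were lower and 1 (4.35%) higher without overlap, with a median difference of -0.19. Rpl37 was at 9.53, 11.34, 9.94 and 10.47 against 12.83, 13.07 and 12.34, at least 5.20-fold lower, while others such as Rps14 (13.57, 13.73, 13.67 and 13.82 against 13.59, 13.64 and 13.57) overlapped, with a difference of 0.10. The E12 APs lay with the neurosphere cells for Atp5g1 (11.87 to 12.25) and Rpl37 (12.27 to 12.82). The median difference was -0.17 over 28 genes of ribosome biogenesis and 0.00 over 25 of glycolysis and hypoxia. Of 8 housekeeping genes 7 had a lower mean, with a median difference of -0.29. The median of the respiratory list was -1.84 after scaling to the lys spike, and with no floor it was -0.99 relative to the median of all genes.

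AP identity genes were held only in part, fewest of them by W2O and W6D. Cells of both groups had been picked by qPCR for Ttyh1 and against Eomes, and neurosphere cells also for Sox2 and Pax6. This picking bears on the AP and intermediate progenitor markers. Of 19 past the filter 13, 12, 12 and 15 reached the floor in the NICD/p18 cells and 13, 9 and 8 in the neurosphere cells. Vim was at 14.04, 13.45, 14.09 and 13.83 against 13.56, 13.72 and 13.93. Cdh2 (N-cadherin) of the apical junctions was higher without overlap, at 12.96, 11.16, 13.06 and 13.36 against 10.80, 10.05 and 9.23, as was Prom1 (prominin) of the apical membrane, at 12.07, 10.77, 10.15 and 10.14 with all neurosphere cells under the floor. Sox9, a factor of glial competence, was at 2.07 in M5A and 10.34, 9.06 and 10.47 in the others, against 10.68, 10.21 and 8.16. Of 16 intermediate progenitor markers 1, 2, 2 and 0 reached the floor in the NICD/p18 cells, the Insm1 gene of delaminating cells among them in M5K and M6C (10.41 and 10.11), and 0, 0 and 2 in the neurosphere cells. Of the neuron markers 0 differed without overlap, where 1.01% of all genes were higher and 2.05% lower. Their median difference of 0.25 was 0.00 without M5K and M6C. Among matrix and adhesion genes Ccdc80, a secreted matrix protein, was at 11.09, 10.83, 11.88 and 9.89 against 1.61, 1.09 and 2.83, and versican (Vcan) at 13.08, 9.07, 13.11 and 12.99 against 9.48, 1.92 and 10.44, with M5K under the floor. In lipid synthesis Fads2, a fatty acid desaturase, was at 10.77, 10.27, 11.59 and 11.32 against 2.62, 2.93 and 2.73. Hmgcs1 and Scd2 were higher without overlap by 0.64 and 0.72. Of 28 genes of lipid synthesis 3 (10.7%) were higher and 0 lower without overlap, against 1.01% and 2.05% of all genes. Of 14 list members that were higher without overlap by less than 4-fold, 6 had a difference under 0 after scaling to the lys spike, namely Aldoc, Ptn, Ndufs1, Hmgcs1 (-0.73), Scd2 (-0.61) and Rpl7 (-0.88), and 0 did with no normalization added.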

How the data were processed

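Each of the 68 samples is the amplified cDNA of 1 mouse cell on its own Affymetrix mouse genome array. The deposited values are MAS5 signal intensities on a linear scale, made by the authors and not quantile normalized. Their 2% trimmed mean was 500 in 10 arrays, those of the 7 cells compared and of the E12 APs, and differed in the other 58. The median deposited intensity of the 7 arrays compared ran from 20.9 to 31.0, and the detection calls and MAS5 version are not given in the sources used here. The number of arrays limits the precision.

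All 68 arrays were quantile normalized together. Signals were floored at 842 (log2 9.72), the median over arrays of the phe spike, and log2 transformed. Probe sets at or above the floor in at least 1 array, 20672 of 45101, were kept. Of the 45101, 34958 have 1 gene in the platform table, 932 several and 9211 are not in it, and 64 are controls that were left out. A gene was represented by its probe set of highest mean, which gave 10788 genes. For 49 of the genes named, further probe sets were compared, and of 35 past the filter 7, of 6 genes, differed in sign from the one used. A gene was counted when the floored means differed by at least 4-fold and the cells did not overlap.

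Named genes are the 12 per direction with the widest gap between the groups, the 18 temporal-axis genes, the selection markers, the introduced genes, and members of gene lists that differed by at least 4-fold without overlap or that a list's description needs. Plagl1, H2az1, H2ax, Anp32e, Dek, Kpna2, Rpl7 and the other Notch1 probe set were added after their values were seen. Members, lists and alternatives were chosen with earlier results of these data known, the removal of M5K and M6C together after seeing the values here. No test was made with 1 sample per group. Steps were tested on simulated data. Python 3.11.15, numpy 2.4.6, pandas 2.3.3, scipy 1.17.1 and matplotlib 3.10.9 were used. Alternatives covered scaling, floor, filter, choice of probe set and leaving out cells.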

Additional observations from a re-analysis of the deposited data

Results flagged for a closer look

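Within the 4 NICD/p18 cells, 8 of 77 gene levels and list scores examined had 1 cell set apart from the other 3 by Dixon's criterion, which marks about 1 in 20 groups by chance. M5K was lowest for Mfge8 at 12.1, and highest for the E11-high gene Crabp2 at 8.39 and the E14-high gene Sema5a at 5.20, both under the floor. M5A was highest for Pax6 at 12.7. Of the list scores, which are mean floored log2 signals, M5K was highest for G1 regulators (10.3) and M5A for the FGF and EGF response (10.5). M6H was highest for the astroglial and late radial glial genes (12.1) and for glycolysis and hypoxia (11.1). The groups of 3 cells were too small for this criterion.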

How the results depend on the processing

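No paired analysis was possible because the result comes from no test and the labels pair no cells. Over 20 alternatives, 2 list medians changed direction, both after scaling to the lys spike, the astroglial list at -0.0876 and the E14-high list at -0.0675. These are floored medians, and with no floor both lists lay above the lys-scaled median of all genes, by 0.84 and 0.45. Of 49 named genes followed, 10 changed sign under at least 1 alternative, and 0 of the 25 that differed by at least 4-fold without overlap did. After scaling to the lys spike these were Aldoc (-0.82), Ptn (-0.75), Sox2 (-0.53), Pax6 (-0.09) and Pag1 (-0.07). Notch1, at -0.99, was at 1.37 as the mean over probe sets, and with no floor Tubb3, at 0.94, was at -1.85 and Lrrn1, at 0.14, at -0.07. Flrt3, at -0.29, was at 0.03 to 0.36 under 4 alternatives, Sulf2, at -0.03, at 0.02 to 0.18 under 8, and Sox2, at 0.54, at -0.01 without M5A and -0.11 without W2G. For other changes the cause was not tested, beyond what a lower floor or no floor adds by construction. Genes counted as at least 4-fold higher and lower, 30 and 30, numbered 100 and 170 with no normalization added, 10 and 6 with 10 arrays normalized together, 5 and 185 with the lys spike, 73 and 107 at a floor times 0.5, 6 and 6 at a floor times 2, 334 and 488 with no floor, 190 and 328 with a pseudocount of 100, and 82 and 72 without M5K and M6C. With the mean over probe sets 16 were higher. Leaving out 1 cell at a time gave 28 to 51 higher and 31 to 48 lower, with 51 higher without W2G and 48 lower without W2O and also without W6D. The G2 and mitosis median of -1.41 was -2.72 with no normalization added, -0.75 with 10 arrays, -1.97 with the spike, -2.14 and -0.60 at floors times 0.5 and 2, -7.19 with no floor, -3.93 with the pseudocount, -1.71 with genes over the floor in 3 of 7 cells, -1.11 with the mean over probe sets and -1.47 to -1.13 leaving out 1 cell. The DNA replication median of -0.61 was -1.41 with no normalization added, -1.04 and -0.18 at floors times 0.5 and 2, -4.32 with no floor, -2.34 with the pseudocount, -1.38 with 3 of 7 cells and -0.81 to 0.00 leaving out 1 cell (0.00 without W2O). The smallest gap in members over the floor between neurosphere and NICD/p18 cells, 6 for replication, was 10 with no normalization added and 2 at a floor times 2. The astroglial median of 0.65 was 0.96 with 3 of 7 cells, 0.27 with no filter and 0.41 to 0.86 leaving out 1 cell. The E14-high median of 0.60 was 0.18 with no normalization added and 0.39 to 0.71 leaving out 1 cell. The Notch target median of 0.10 was 1.35 with no floor, 0.80 with the pseudocount, 0.50 with 3 of 7 cells and 0.00 to 0.35 leaving out 1 cell. The oligodendrocyte median of -0.58 was -1.09 with no normalization added, -3.19 with no floor, -1.50 with the pseudocount, -3.49 with 3 of 7 cells, 0.00 with no filter and -0.88 to 0.00 leaving out 1 cell (0.00 without W6D). The neuron median of 0.25 was 1.67 with no floor, 0.92 with the pseudocount, 1.06 with 3 of 7 cells and 0.19 to 0.33 leaving out 1 cell. The respiratory chain median of -0.88 was -1.22 with no normalization added, -1.84 with the spike, -1.28 without M5K and M6C and -1.10 to -0.68 leaving out 1 cell. Signals under the floor cannot be ranked, which limits differences of low genes.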

Other observations

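Several genes lay on the same side of the floor in all NICD/p18 and neurosphere cells and on the other side in the E12 APs. The perineuronal proteoglycan Bcan was at 11.89 to 13.77 over the 7 cells and 4.57 to 6.04 in the E12 APs. The transmembrane protein Dner was at 10.90 to 12.59 over the 7 cells and at most 3.65 in the E12 APs, and the metallothionein Mt3 at 10.86 to 13.93 and 6.46 to 9.07. Mycn, a proto-oncogene of growing progenitors, was under the floor in all 7 cells and at 10.14 to 11.88 in the E12 APs. Hmga2, an architectural chromatin protein, was less clearly split, as it reached the floor in M6C alone of the 7 (10.45), and in 103L and 109B (11.94 and 11.63).

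Of further genes that did not overlap between the groups, the bHLH factor Tcf4 was at 12.03 to 12.07 in the NICD/p18 cells and 9.77 to 11.27 in the neurosphere cells. The Wnt receptor Fzd8 was at 10.47 to 12.18 in the first and at most 10.38 in the second. Thioredoxin (Txn1) was at 10.62 to 13.20 against 13.80 to 14.11. The stress factor Atf4 was at 11.15 to 12.53 against 10.42 to 10.94. Of 21 genes of dorsal cortex patterning past the filter 0 differed without overlap, where 1.01% of all genes were higher and 2.05% lower.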
